A study of Mus musculus with 18 samples.

Results

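The difference between polycystic liver disease (PLD) and wild-type (WT) cells at 2 months was set against the same difference at 1 month, gene by gene, in untreated primary mouse cholangiocytes, which form the lining of bile ducts. The interaction change is the log2 difference (PLD at 2 months minus WT at 2 months) minus (PLD at 1 month minus WT at 1 month), so that a positive value means that the PLD to WT difference moved upwards with time. Its members are the 12 untreated libraries of the series, out of 18 in all, with 3 libraries each of PLD at 2 months, WT at 2 months, PLD at 1 month and WT at 1 month, and all genes were tested. The other libraries, from PLD mice given CPTH6 or ML324, did not enter this comparison. Months are counted from tamoxifen, which the labels give for both genotypes, and sex, strain and the age at tamoxifen are not given in the sources used here. The labels name neither the gene inactivated in PLD mice nor the Cre driver. They do not say whether replicates are separate animals, so every p-value measures the spread between these libraries, which may be technical.

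In polycystic liver disease, bile ducts widen into fluid-filled cysts lined by cholangiocytes that proliferate and secrete. The inherited forms involve proteins of the primary cilium, such as the polycystins, or of protein maturation in the endoplasmic reticulum. Ducts are normally surrounded by fibroblasts, smooth muscle and a capillary plexus, and the liver's own capillaries, the sinusoids, are lined by scavenging endothelial cells that also release Wnt ligands.

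Polyadenylated RNA was counted as read pairs per gene, with 17048976 to 29277311 counts per library among the 12. Cells had been captured with an antibody to EpCAM from minced bile ducts, and their identity was checked by the submitters with CK19 staining. The label of cholangiocyte was checked against 22 marker genes, all of which had counts in every library. Their summed level was 25400 to 26300 CPM (counts scaled to the library's TMM-normalised total) in PLD at 2 months, against 4700 to 9170 CPM in WT at 2 months. At 1 month the sum was 15500 to 21300 CPM in PLD and 7180 to 17000 CPM in WT. Every library also held RNA of other cell types. The 16 general endothelial markers summed to 999 to 2120 CPM in PLD at 2 months and 10600 to 17900 CPM in WT at 2 months, where they exceeded the cholangiocyte sum in all 3 libraries. At 1 month they summed to 3400 to 6560 CPM in PLD and 3350 to 8770 CPM in WT. WT replicate 3 at 1 month stood apart from the other WT libraries of that month, with log2 CPM correlations of 0.931 and 0.935 against 0.978 between the other pair, and with the highest cholangiocyte and the lowest endothelial and fibroblast marker levels of its group. WT replicate 1 at 2 months had a count for 40039 genes, against 23498 to 30332 in the PLD libraries at 2 months and 29725 and 27957 in the other WT libraries at that time.

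**Figure D1:**
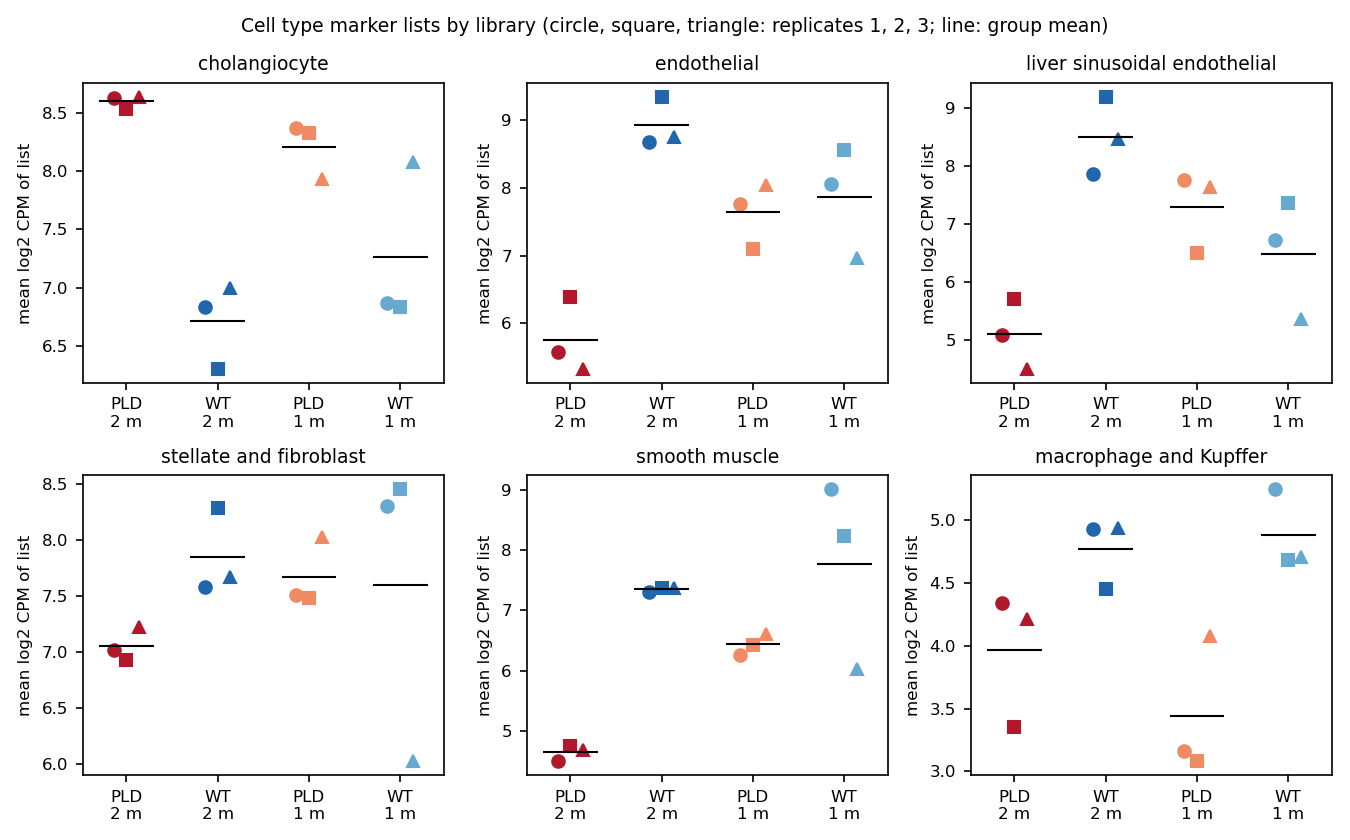
Mean log2 CPM of 6 cell type marker lists in each of the 12 libraries. Points are libraries and lines are group means (n = 3 each), and the vertical scale differs between panels. Endothelial markers averaged 5.76 in PLD at 2 months and 8.93 in WT at 2 months, against 7.64 in PLD and 7.86 in WT at 1 month.

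Of 17749 genes tested, 1008 (5.68%) were called in the interaction with edgeR at an adjusted p under 0.05. The change was upwards for 453 genes (2.55%) and downwards for 555 (3.13%), and over all tested genes its median was 0.02. The lowest adjusted p was 0.00768, and 4204 genes had an unadjusted p under 0.05. Of the called genes, 917 were protein coding. In the same fit, PLD and WT differed in 7091 genes (40%) at 2 months, with 3490 higher (19.7%) and 3601 lower (20.3%) in PLD. At 1 month they differed in 892 genes (5.03%), with 533 higher (3%) and 359 lower (2.02%) in PLD. Time was called in PLD for 1706 genes (9.61%), of which 778 rose (4.38%) and 928 fell (5.23%), and in WT for 9 genes (0.0507%), of which 2 rose (0.0113%) and 7 fell (0.0394%). These contrasts use the same libraries as the interaction, and here they only describe it.

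Among genes called upwards, the median PLD to WT difference was 1.35 log2 units at 2 months and 0.11 at 1 month. Among genes called downwards, it was -2.44 at 2 months and -0.10 at 1 month. The PLD to WT difference kept its sign and widened in 602 called genes, changed sign in 404 and narrowed in 2. PLD and WT moved in opposite directions with time in 967 of the 1008 (95.9%). Since the interaction change is the change with time in PLD minus that in WT, choosing genes by it favours opposite directions, and that share is only a description. Upward genes had a median change with time of 0.78 in PLD and -0.47 in WT, and downward genes had -1.37 in PLD and 0.82 in WT. The change with time was itself called in PLD for 678 of the 1008 genes and in WT for 5.

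The count depended on single libraries. Leaving out 1 library at a time gave 100 calls without WT replicate 2 at 2 months and up to 1413 without WT replicate 3 at 1 month. The count was 244, 575 and 299 without PLD replicates 1, 2 and 3 at 2 months, 456 without WT replicate 3 at 2 months, 217, 603 and 213 without PLD replicates 1, 2 and 3 at 1 month, and 516 without WT replicate 1 at 1 month. Among all tested genes, 97 genes (32 upwards, 65 downwards) were called in all 12 such fits. With the mean log2 CPM of the endothelial markers as a covariate, edgeR called 0 genes, with 2507 at an unadjusted p under 0.05, and 928 of the 1008 kept their sign, at medians of 0.85 for upward and -0.59 for downward genes. Between the 4 groups lay 85.3% of that mean's variance, so endothelial marker level and the interaction cannot be fully told apart in these libraries.

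**Figure D2:**
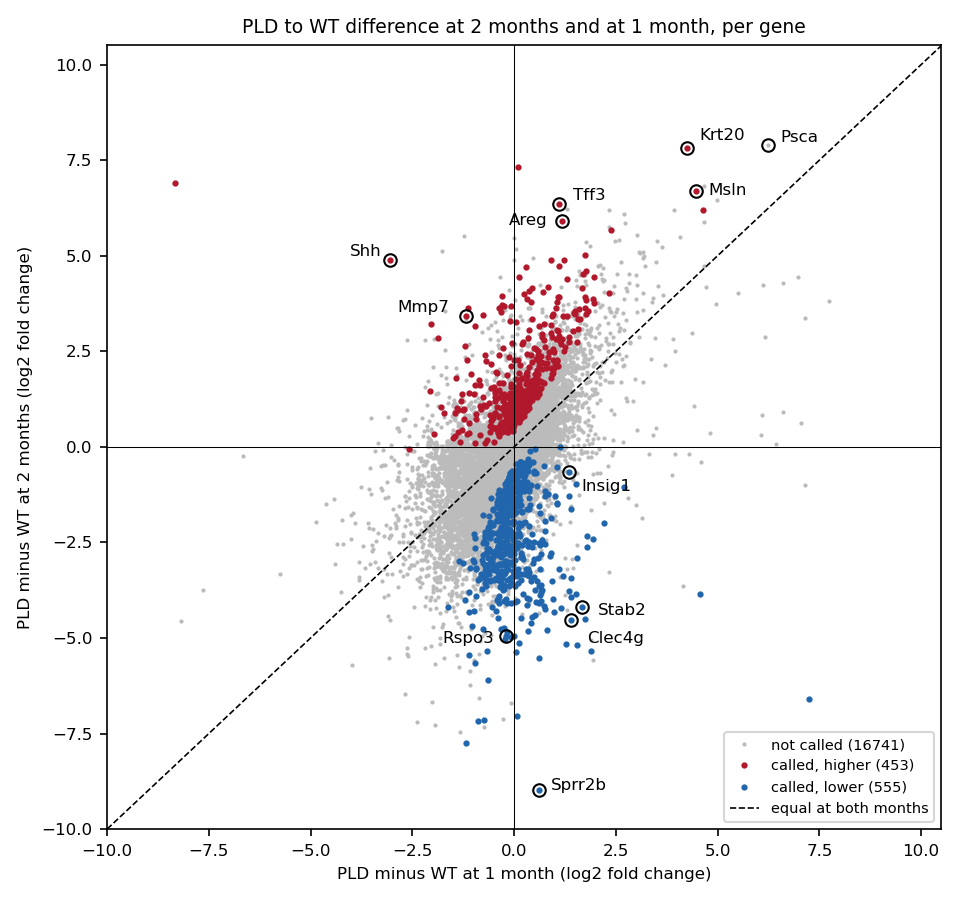
PLD minus WT log2 fold change at 2 months (vertical) against the same at 1 month (horizontal) for each of the 17749 genes tested, with the 453 genes called upwards in the interaction in red and the 555 called downwards in blue. Most called genes lie along the vertical line, with a difference near 0 at 1 month, and Psca lies far from 0 at both months without being called.

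The 10 largest upward changes, among called genes with a mean of at least 10 CPM in 1 group, included those of Tff3, Areg, Mmp7, Cyp2c65, Sult1d1, Atp2c2, Myo1a, Dbp and Rasgrf1, running from 5.26 for Tff3 to 3.98 for Rasgrf1. Areg encodes amphiregulin, a ligand of the EGF receptor (mm10 chr5:91139599-91148432, plus strand). Areg was at 21.3, 49.1 and 43.7 CPM in PLD at 2 months, against 0.903, 0.542 and 0.418 CPM in WT at 2 months. At 1 month, Areg was at 5.95, 5.76 and 2.66 CPM in PLD and 3.58, 1.55 and 1.2 CPM in WT. All 3 PLD libraries at 2 months were above the other 9. Areg had an interaction change of 4.73 ± 0.71 (SE; edgeR adjusted p = 0.0127), and it was called in all 12 fits that left out a library. Its estimate with the endothelial covariate was 5.03. Mmp7 encodes matrilysin, a secreted metalloproteinase of glandular epithelium (chr9:7692090-7699585, plus strand). Mmp7 was at 99, 942 and 311 CPM in PLD at 2 months, against 36.6, 56.2 and 33.1 CPM in WT at 2 months. At 1 month, Mmp7 was at 16.8, 14.5 and 12 CPM in PLD and 37.9, 22.8 and 37.6 CPM in WT. The PLD libraries at 2 months spanned a wide range, yet their lowest was above all other libraries, while at 1 month the PLD libraries were all below the WT ones. Mmp7 had an interaction change of 4.61 ± 0.88 (SE; edgeR adjusted p = 0.0209), was called in 9 of the 12 fits without a library, and had an estimate of 5.88 with the endothelial covariate.

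Tff3 encodes a trefoil peptide that is secreted with mucus. Tff3 was at 115, 47.8 and 159 CPM in PLD at 2 months, against 1.68, 2.08 and 0.0523 CPM in WT at 2 months. At 1 month, Tff3 was at 9.21, 7.57 and 1.09 CPM in PLD and 3.71, 0.868 and 3.85 CPM in WT. The 3 PLD libraries at 2 months were the highest, and 1 WT library at that time was near 0. Tff3 had an interaction change of 5.26 ± 1.27 (SE; edgeR adjusted p = 0.0398), but was called in only 3 of the 12 fits that left out a library, and its estimate with the endothelial covariate was 1.95. Sult1d1, a sulfotransferase, was at 6.77, 29.2 and 10.6 CPM in PLD at 2 months, and was at or below 1.14 CPM in each of the other 9 libraries. Sult1d1 had an interaction change of 4.32 ± 0.96 (SE; edgeR adjusted p = 0.0311), was called in 4 of the 12 fits without a library, and had an estimate of 5.08 with the endothelial covariate. Atp2c2, a calcium and manganese pump of the secretory pathway, Cyp2c65, a cytochrome P450, Myo1a, a myosin of the brush border, and Rasgrf1, an exchange factor for Ras, were each called in 2 or 3 of the 12 fits without a library. Atp2c2 changed by 4.24 ± 1.04 and had an estimate of 3.06 with the endothelial covariate, and Cyp2c65 changed by 4.42 ± 1.02 and had 1.88 with it. Likewise, Myo1a changed by 4.12 ± 0.98 and had 2.80 with the covariate, and Rasgrf1 changed by 3.98 ± 1.03 and had 1.58.

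The 10 largest downward changes by the same rule were those of Sprr2b, Adh6b, Dnase1l3, Clec4g, Stab2, Plppr5, Clec1b, Oit3, Slc26a10 and F8, running from -9.60 for Sprr2b to -5.02 for F8. The sinusoidal endothelial list holds 5 of these 10. Sprr2b belongs to a family of near-identical small proline-rich proteins whose reads can be split or lost, so its value is uncertain. It had 0, 0 and 1 counts in PLD at 2 months, and 19.9, 13.1 and 3.56 CPM in WT at 2 months, and its fitted change depends on the prior count and is no bound. Adh6b, a member of the alcohol dehydrogenase family, was at 0.24, 0.596 and 0.557 CPM in PLD at 2 months and 10.2, 26.1 and 15.9 CPM in WT at 2 months. At 1 month, Adh6b was at 2.52, 1.64 and 8.34 CPM in PLD and 1.42, 1.59 and 1.25 CPM in WT. Adh6b had an interaction change of -6.73 ± 0.88 (SE; edgeR adjusted p = 0.00768). Slc26a10, a member of a family of anion transporters, had an interaction change of -5.15 ± 0.54 (SE; edgeR adjusted p = 0.00768), and both genes were called in all 12 fits without a library. The endothelial covariate gave estimates of -3.91 for Adh6b and -2.88 for Slc26a10.

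RefSeq promoter windows of GRCm38.p6, from 250 bases before to 50 after the annotated start, were given for 7 of the 10 largest upward and 7 of the 10 largest downward genes. They are shown for Areg and Mmp7, which rose in PLD with time, and for Clec4g, which fell, so that the letters searched can be seen. A TATA box (TATAAA on either strand) was present in 4 of 7 upward and 4 of 7 downward genes (57.1% each), against 13.6% of all 32544 windows. An AP-1 motif (TGANTCA on either strand) was found in 1 of 7 genes of each set, against 7.79% of all windows, and a TEAD motif (GGAATG on either strand) in 0 of 7 upward and 1 of 7 downward genes, against 14.6%. Mmp7 had a pair of windows, and the one printed is the upstream one. Capitals mark the TATA box, which lies on the opposite strand in Clec4g as TTTATA, and in Mmp7 also the AP-1 motif TGAGTCA between its TATA boxes. The windows are chr5:91139349-91139648 on the plus strand for Areg, chr9:7691840-7692139 on the plus strand for Mmp7, and chr8:3720602-3720901 on the minus strand for Clec4g. A match describes these letters alone and is no evidence of binding.
Areg: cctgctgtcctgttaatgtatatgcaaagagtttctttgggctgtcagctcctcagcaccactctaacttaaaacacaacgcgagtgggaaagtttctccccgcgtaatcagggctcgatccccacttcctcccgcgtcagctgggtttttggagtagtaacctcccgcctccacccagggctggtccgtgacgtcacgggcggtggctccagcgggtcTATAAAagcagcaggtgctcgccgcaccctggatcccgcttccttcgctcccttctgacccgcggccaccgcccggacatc
Mmp7: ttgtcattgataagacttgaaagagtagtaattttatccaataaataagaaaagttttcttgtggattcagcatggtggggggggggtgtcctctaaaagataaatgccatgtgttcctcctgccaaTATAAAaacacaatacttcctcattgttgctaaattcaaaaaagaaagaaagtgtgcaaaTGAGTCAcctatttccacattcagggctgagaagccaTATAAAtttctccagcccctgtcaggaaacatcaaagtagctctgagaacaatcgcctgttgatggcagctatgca
Clec4g: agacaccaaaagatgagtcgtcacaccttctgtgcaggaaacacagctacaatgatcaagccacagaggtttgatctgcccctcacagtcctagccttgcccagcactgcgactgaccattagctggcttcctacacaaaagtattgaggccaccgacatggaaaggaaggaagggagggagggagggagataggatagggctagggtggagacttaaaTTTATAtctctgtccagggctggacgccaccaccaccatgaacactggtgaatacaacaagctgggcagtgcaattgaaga

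Among the 53 gene lists, the endothelial and sinusoidal lists held the largest shares of called members. Of the 16 general endothelial markers, 13 were called downwards and 0 upwards, with a median change of -2.75, and all 16 had an unadjusted p under 0.05. Their median change with time was -1.82 in PLD, where 13 fell, and 1.01 in WT, where none was called. Of the 12 sinusoidal endothelial markers, 10 were called downwards, with a median of -3.79, a change with time of -2.08 in PLD and of 1.74 in WT. In a bulk library, fewer cells of a type and less RNA per cell cannot be told apart. Without WT replicate 2 at 2 months, whose endothelial sum was the highest of all, 0 of 16 and 1 of 12 were called, and the medians were -2.47 and -3.43. With the endothelial covariate the medians were 0.08 and -0.52. Without WT replicate 3 at 1 month, 15 of 16 and 10 of 12 were called.

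Kdr encodes the main receptor for VEGF on endothelium (chr5:75932827-75978458, minus strand). Kdr was at 72.8, 89.2 and 52.4 CPM in PLD at 2 months, against 486, 1200 and 762 CPM in WT at 2 months. At 1 month, Kdr was at 519, 213 and 447 CPM in PLD and 268, 421 and 114 CPM in WT. The groups at 2 months did not overlap and the groups at 1 month did. Kdr had an interaction change of -4.07 ± 0.71 (SE; edgeR adjusted p = 0.016), with a change with time of -2.46 ± 0.51 in PLD and 1.61 ± 0.49 in WT. Ptprb, a phosphatase of endothelial junctions, changed by -3.53 ± 0.61, and Tek, the receptor for angiopoietins, by -3.79 ± 0.66, both called in 11 of the 12 fits without a library. Tie1, the partner of Tek, changed by -2.75 ± 0.57 and was called in 6 of these fits. Vwf, the clotting protein stored in endothelial granules, was at 286 ± 159 CPM in PLD and 2840 ± 1050 CPM in WT at 2 months, and at 918 ± 290 CPM in PLD and 1220 ± 420 CPM in WT at 1 month (mean ± SD, n = 3 each). Vwf had an interaction change of -2.91 ± 0.60 (SE; edgeR adjusted p = 0.026) and was called in 6 of the 12 fits without a library. With the endothelial covariate, a mean over the list that holds these genes, the estimates were -0.83 for Kdr, -0.80 for Ptprb, -0.76 for Tek, -0.09 for Tie1 and -0.50 for Vwf.

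Among sinusoidal genes, Clec4g encodes a lectin of sinusoidal endothelium (chr8:3707064-3720651, minus strand). Clec4g was at 11.9, 25.7 and 7.95 CPM in PLD at 2 months, against 175, 570 and 315 CPM in WT at 2 months. At 1 month, Clec4g was at 192, 76.7 and 141 CPM in PLD and 40.5, 104 and 12.1 CPM in WT. PLD was the lower genotype at 2 months in all libraries. At 1 month PLD had the higher mean, but the groups overlapped and the difference of 1.39 ± 0.71 was not called (SE; edgeR adjusted p = 0.263). Clec4g had an interaction change of -5.93 ± 1.07 (SE; edgeR adjusted p = 0.0176). Stab2, a scavenger receptor for hyaluronan, changed by -5.86 ± 1.20, Dnase1l3, a secreted nuclease, by -6.24 ± 1.15, Oit3 by -5.36 ± 1.18, and Gpr182, an atypical chemokine receptor of endothelium, by -4.45 ± 0.80. F8, clotting factor VIII, which liver endothelium makes, changed by -5.02 ± 0.79 and was called in all 12 fits without a library. Clec1b, the receptor for podoplanin and no member of that list, changed by -5.38 ± 1.13 and was called in 5 of them. Clec4g and Gpr182 were each called in 10 of these fits, Dnase1l3 in 9, Stab2 in 6 and Oit3 in 5. Estimates with the endothelial covariate ran from -1.72 for F8 to -0.38 for Clec1b, with -1.34 for Clec4g and -0.48 for Stab2. The annotated span of Clec1b overlaps that of Clec9a on the same strand, so reads could be shared. Of 17 genes of the VEGF and angiopoietin system, 6 were called downwards and 0 upwards (median -1.92). Those 6 were receptors or coreceptors and include Kdr, Tek and Tie1, which also belong to the endothelial list.

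**Figure D3:**
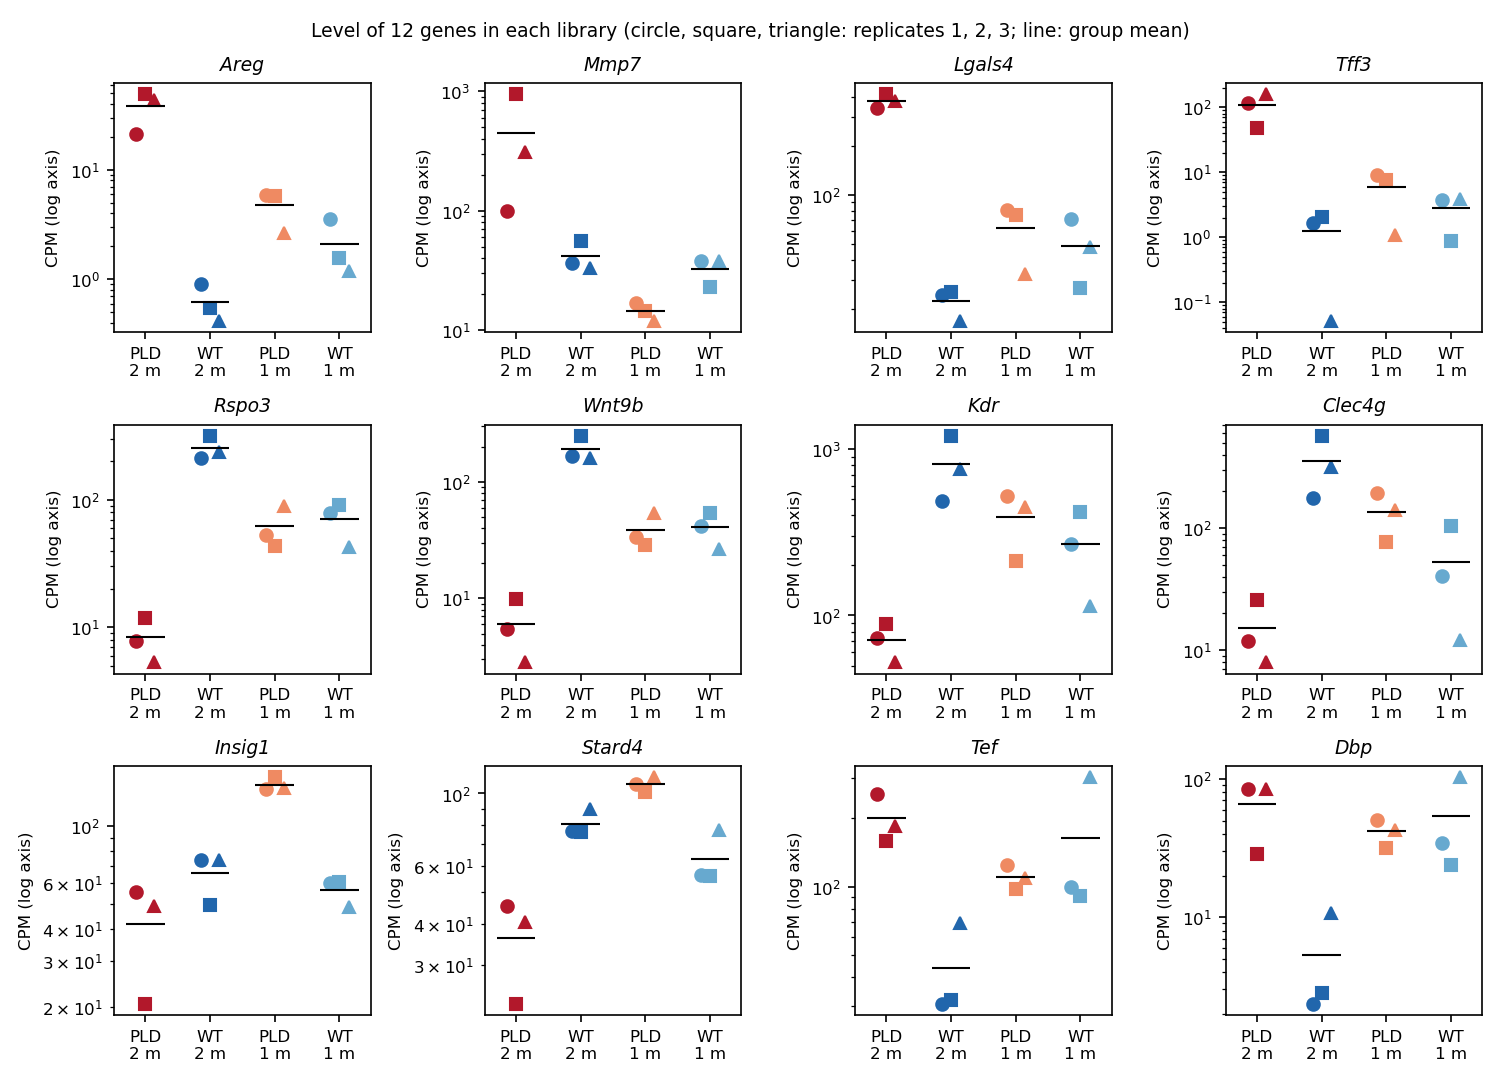
CPM of 12 genes in each library on a log axis, with group means as lines (n = 3 each). Areg, Mmp7, Lgals4 and Tff3 are highest in the 3 PLD libraries at 2 months, Rspo3, Wnt9b and Kdr are lowest there, Clec4g is low there and in 1 WT library at 1 month (12.1 CPM), Insig1 and Stard4 are highest in PLD at 1 month, and Tef and Dbp are lowest in WT at 2 months.

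Wnt ligands were called in both directions. R-spondins are secreted proteins that strengthen Wnt signalling at the receptor. Of 15 tested ligands and R-spondins, 3 were called downwards (Rspo3, Wnt9b and Wnt2, which liver endothelium is known to release) and 3 upwards (Wnt10a, Wnt4 and Wnt7b, named after their values were seen), with a median change of 0.40. Rspo3 was at 7.79, 11.9 and 5.32 CPM in PLD at 2 months, against 212, 318 and 236 CPM in WT at 2 months. At 1 month, Rspo3 was at 53.2, 43.8 and 88.8 CPM in PLD and 79.4, 91.6 and 42.7 CPM in WT. PLD at 2 months was below every other library and WT at 2 months above every other one. Rspo3 (chr10:29452416-29535867, minus strand) had an interaction change of -4.74 ± 0.54 (SE; edgeR adjusted p = 0.00768), with a change with time of -2.90 ± 0.39 in PLD and 1.84 ± 0.37 in WT. Wnt9b was at 5.45, 9.97 and 2.84 CPM in PLD at 2 months, against 166, 247 and 160 CPM in WT at 2 months. At 1 month, Wnt9b was at 33.3, 28.7 and 54.1 CPM in PLD and 41.9, 54.2 and 26.7 CPM in WT. Wnt9b showed the same order of groups and had an interaction change of -4.89 ± 0.61 (SE; edgeR adjusted p = 0.00768). Wnt2 changed by -4.71 ± 0.65, and all 3 downward ligands were called in each of the 12 fits without a library. Their estimates with the endothelial covariate were -2.36 for Rspo3, -2.42 for Wnt9b and -2.20 for Wnt2.

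Wnt10a was at 30.3, 31.3 and 33 CPM in PLD and 2.97, 1.13 and 2.09 CPM in WT at 2 months, and at 7.78, 7.02 and 3.9 CPM in PLD and 2.33, 2.98 and 3.45 CPM in WT at 1 month. Every PLD library at 2 months was above every other library, and Wnt10a had an interaction change of 2.83 ± 0.47 (SE; edgeR adjusted p = 0.016) and was called in all 12 fits without a library. Wnt4 changed by 1.91 ± 0.37 and was called in 9 of these fits, and Wnt7b changed by 2.08 ± 0.50 and was called in 3. Estimates with the endothelial covariate were 1.86 for Wnt10a, 1.37 for Wnt4 and 0.39 for Wnt7b. Of 16 feedback targets of Wnt signalling, 1 was called upwards and 0 downwards, a share near the 5.68% of all tested genes, with a median of 0.70.

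Among 14 Hedgehog genes, 2 were called downwards, among them the ligand Dhh with a change of -2.31 ± 0.41, and the ligand Shh was called upwards at 7.94 ± 1.84 (median of the list 0.12). Shh was at 3, 5.09 and 1.97 CPM in PLD and 0.215, 0.0452 and 0.0523 CPM in WT at 2 months, and at 0.858, 0.477 and 0.641 CPM in PLD and 9.63, 0 and 6.65 CPM in WT at 1 month. The WT libraries at 1 month disagreed, with 1 of them at 0 counts, and Shh was called in 2 of the 12 fits without a library.

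Of 14 EGF ligands and ERBB receptors, 3 were called upwards and 1 downwards (median 0.75). Beside Areg, the upward genes include Hbegf, heparin-binding EGF, at 1230 ± 227 CPM in PLD and 264 ± 97 CPM in WT at 2 months. At 1 month, Hbegf was at 545 ± 129 CPM in PLD and 405 ± 49.1 CPM in WT (mean ± SD, n = 3 each), and it had an interaction change of 1.79 ± 0.38 (SE; edgeR adjusted p = 0.0279). Nrg1, neuregulin 1, a ligand of the ERBB3 and ERBB4 receptors, went the other way. Nrg1 was at 13.7, 12.9 and 15.4 CPM in PLD at 2 months, against 94.5, 84.6 and 78.8 CPM in WT at 2 months. At 1 month, Nrg1 was at 30.5, 25.4 and 42.1 CPM in PLD and 33.2, 41.4 and 20.8 CPM in WT. Nrg1 was lowest in the PLD libraries and highest in the WT libraries at 2 months, while the groups overlapped at 1 month. Nrg1 had an interaction change of -2.65 ± 0.34 (SE; edgeR adjusted p = 0.00768) and was called in all 12 fits without a library, and Hbegf was called in 4. With the endothelial covariate the estimates were 1.27 for Hbegf and -1.53 for Nrg1.

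In the cholangiocyte, keratin, junction, gut-type, ion transport and cyst lists every called gene changed upwards, whereas biliary transcription factors were called in both directions. Of the 22 cholangiocyte markers, 4 were called upwards and 0 downwards, 21 had a positive change, and the median was 1.10, with 0.42 for the change with time in PLD and -0.68 in WT. Leaving out WT replicate 3 at 1 month, the library with the highest cholangiocyte markers of its group, again gave 4 called upwards but a median of 0.49, and with the endothelial covariate the median was -0.75. Krt19, a keratin of simple epithelium, was at 2890 ± 229 CPM in PLD and 232 ± 56 CPM in WT at 2 months, and at 1390 ± 464 CPM in PLD and 414 ± 156 CPM in WT at 1 month (mean ± SD, n = 3 each). Krt19 had an interaction change of 1.89 ± 0.46 (SE; edgeR adjusted p = 0.0403), was called in 3 of the 12 fits without a library, and had an estimate of 0.27 with the endothelial covariate. Of 24 biliary transcription factors, 2 were called upwards and 1 downwards, with a median of 0.82, which was -0.60 with the endothelial covariate. The upward ones were Elf3, also a cholangiocyte marker here, which changed by 2.51 ± 0.52, and Klf5, an epithelial factor, which changed by 1.97 ± 0.42. The downward one was Gata4, a factor of endoderm and of sinusoidal endothelium, which changed by -2.81 ± 0.69. Elf3 was called in 5 of the 12 fits without a library, Klf5 in 4 and Gata4 in 3. The endothelial covariate gave estimates of 1.07 for Elf3, 0.38 for Klf5 and 0.35 for Gata4, whose sign turned. Epcam, the protein used for capture, had an interaction change of 1.24 ± 0.42 (SE; edgeR adjusted p = 0.111) and Sox9, a transcription factor of ducts, had an interaction change of 1.69 ± 0.56 (SE; edgeR adjusted p = 0.0999), and neither passed the test.

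Of 10 keratins tested, 2 were called upwards, Krt19 and Krt20 (median 1.04, and -0.21 with the endothelial covariate). Krt20 is a keratin of gut and urothelial surfaces. Krt20 was at 138, 207 and 163 CPM in PLD at 2 months, against 1.29, 0.271 and 0.628 CPM in WT at 2 months. At 1 month, Krt20 was at 27.3, 29.6 and 9.42 CPM in PLD and 1.12, 1.13 and 1.25 CPM in WT. The PLD libraries at each month were above all WT libraries, and those at 2 months above those at 1 month. Krt20 had an interaction change of 3.59 ± 0.70 (SE; edgeR adjusted p = 0.0225), and its estimate with the endothelial covariate was 2.80. Of 35 junction and polarity genes, 2 were called upwards and 0 downwards, a share near the 5.68% of all tested genes. The median of the list was 1.00, and -0.39 with the endothelial covariate. The called genes were Pkp3, a desmosomal plakophilin, with 1.87 ± 0.40, and Perp, a desmosomal membrane protein, with 1.53 ± 0.36, and their estimates with that covariate were 0.20 for Pkp3 and 0.42 for Perp. Pkp3 was called in 4 of the 12 fits without a library and Perp in 3.

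Of 21 mucins, trefoil peptides and gut-type genes, 4 were called upwards and 0 downwards, with a median of 1.67, which was 0.95 with the endothelial covariate. Lgals4 encodes galectin-4, a lectin of gut epithelium (chr7:28833854-28841708, plus strand). Lgals4 was at 342, 414 and 377 CPM in PLD at 2 months, against 24.4, 25.3 and 16.9 CPM in WT at 2 months. At 1 month, Lgals4 was at 80.6, 75 and 32.6 CPM in PLD and 71.4, 26.8 and 48.1 CPM in WT. PLD at 2 months was above all other libraries and WT at 2 months below all others. Lgals4 had an interaction change of 3.72 ± 0.54 (SE; edgeR adjusted p = 0.0105), with a change with time of 2.59 ± 0.39 in PLD and -1.13 ± 0.38 in WT. Foxq1, a forkhead transcription factor, changed by 3.72 ± 0.59, and both genes were called in all 12 fits without a library. Estimates with the endothelial covariate were 3.17 for Lgals4 and 2.28 for Foxq1.

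Of 20 genes of bile duct ion and water transport, 4 were called upwards and 0 downwards (median 1.29, and -0.03 with the endothelial covariate). Kcnq1, a potassium channel of secreting epithelia, was at 358, 356 and 284 CPM in PLD and 60.2, 65 and 63.8 CPM in WT at 2 months, and at 166, 165 and 138 CPM in PLD and 87.8, 68 and 158 CPM in WT at 1 month. Kcnq1 had an interaction change of 1.82 ± 0.36 (SE; edgeR adjusted p = 0.0229). Car2, carbonic anhydrase 2, changed by 2.57 ± 0.63, and Slc4a2, the chloride and bicarbonate exchanger, by 0.53 ± 0.13. Car2 and Slc4a2 were each called in 2 of the 12 fits without a library, and Kcnq1 in 8. With the endothelial covariate the estimates were 0.71 for Kcnq1, 0.24 for Slc4a2 and -0.20 for Car2, whose sign turned.

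Of 23 surface and secreted genes of cysts, 6 were called upwards and 0 downwards (median 1.33, and 1.04 with the endothelial covariate). Wfdc2, a secreted protease inhibitor of ducts, was at 202, 199 and 266 CPM in PLD and 31.2, 22.4 and 20.6 CPM in WT at 2 months. At 1 month, Wfdc2 was at 93.7, 108 and 65.2 CPM in PLD and 58.8, 45.5 and 69.9 CPM in WT. Wfdc2 had an interaction change of 2.55 ± 0.33 (SE; edgeR adjusted p = 0.00768). Msln, mesothelin, a surface protein of mesothelium and several tumours, already differed at 1 month. Msln was at 1100, 1330 and 1110 CPM in PLD at 2 months, against 9.29, 15.6 and 9.15 CPM in WT at 2 months. At 1 month, Msln was at 556, 554 and 278 CPM in PLD and 21.8, 17.3 and 23.5 CPM in WT. PLD and WT were far apart at both months, and the difference was 6.69 log2 units at 2 months and 4.47 at 1 month. Msln had an interaction change of 2.22 ± 0.40 (SE; edgeR adjusted p = 0.0181). Wfdc2 and Msln were called in all 12 fits without a library, and their estimates with the endothelial covariate were 1.36 and 2.02.

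Other genes of cysts stood far above WT at both months without a call in the interaction. Psca, prostate stem cell antigen, differed by 7.88 log2 units at 2 months and 6.24 at 1 month, and its interaction change was 1.64 ± 1.07 (edgeR adjusted p = 0.382). Its WT libraries were near 0, at 0.817, 0.0903 and 0.157 CPM at 2 months and 0.0863, 0.415 and 0.25 CPM at 1 month. Anxa8, an annexin, differed by 6.45 at 2 months and 4.98 at 1 month, with an interaction change of 1.47 ± 0.48 (SE; edgeR adjusted p = 0.0973). Esr1, oestrogen receptor alpha, was at 349, 301 and 273 CPM in PLD and 13.7, 22.4 and 14.4 CPM in WT at 2 months, and at 578, 495 and 387 CPM in PLD and 21.4, 26.8 and 7.75 CPM in WT at 1 month. Esr1 had an interaction change of -0.51 ± 0.52 (SE; edgeR adjusted p = 0.584). These adjusted p-values do not show that the difference stayed the same, since the standard errors leave room for changes in either direction for Psca and Esr1.

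Of 12 inherited polycystic disease genes, 0 were called with edgeR, 2 had an unadjusted p under 0.05, DESeq2 called 1 downwards and limma-voom 0, and the median change was -0.05. Pkd1 and Pkd2 encode the polycystins, and their changes were -0.33 ± 0.30 and 0.10 ± 0.17. Prkcsh and Sec63, which act in protein maturation and entry at the endoplasmic reticulum, had changes of 0.39 ± 0.16 and -0.44 ± 0.23. Pkhd1, which encodes fibrocystin, was at 130, 160 and 725 CPM in the WT libraries at 1 month, with the highest value in replicate 3. Its change was 0.62 ± 0.77 (edgeR adjusted p = 0.661), and -0.59 without that library.

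**Figure D4:**
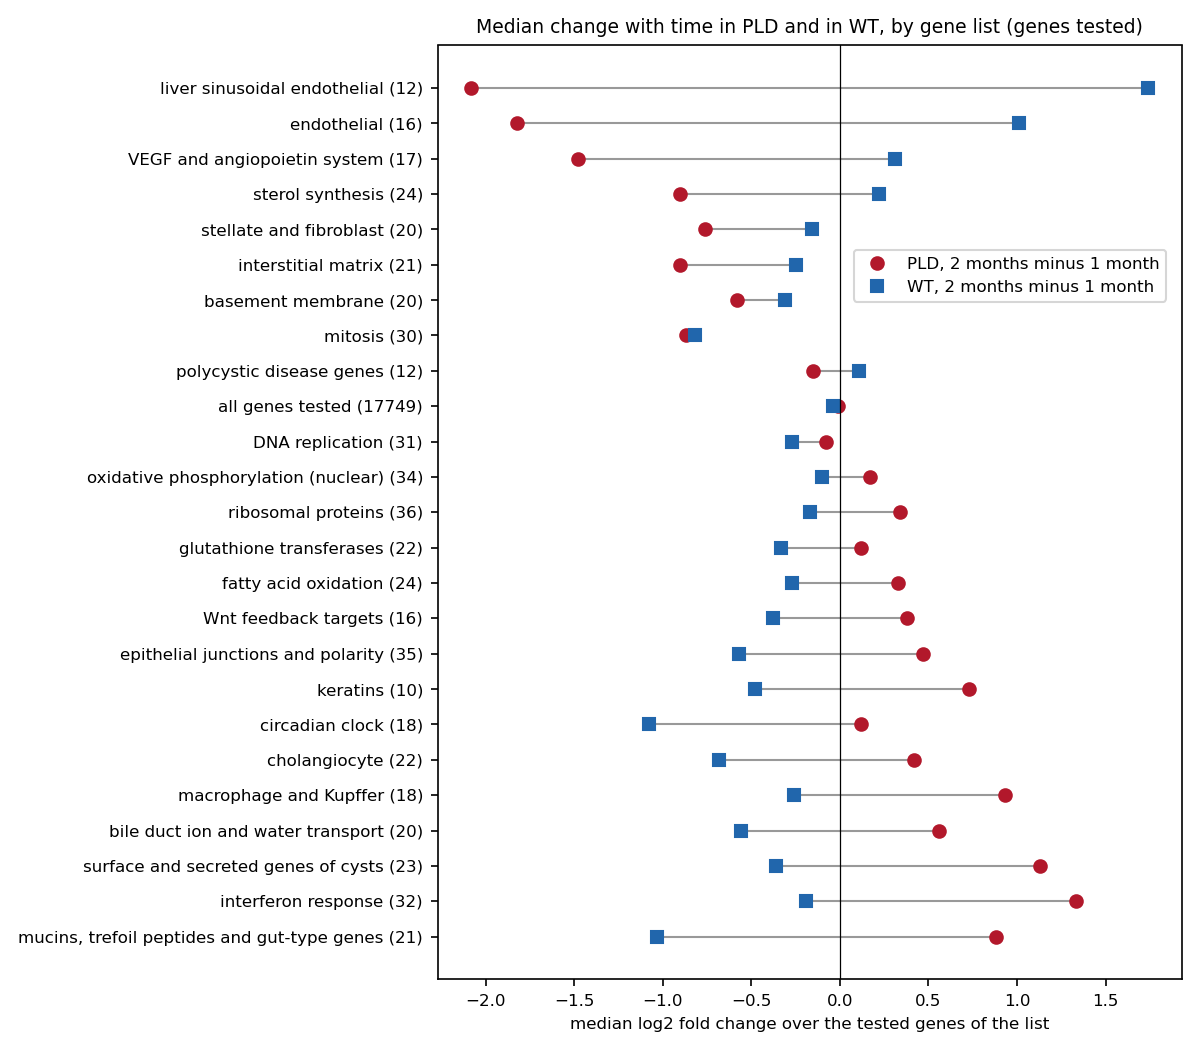
Median log2 change from 1 to 2 months in PLD (red circles) and in WT (blue squares) over the tested genes of 24 lists and over all 17749 genes, with the number of genes in brackets. The gap between the symbols is largest for sinusoidal endothelial genes, at -2.08 in PLD and 1.74 in WT, and the symbols nearly coincide for mitosis genes, at -0.87 in PLD and -0.82 in WT.

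The few basement membrane genes that were called went in both directions. Of 20 basement membrane genes, 1 was called upwards and 2 downwards (median -0.47), against 2.55% upwards and 3.13% downwards over all tested genes. With counts this small, nothing is read about the list. Lamb3, a chain of epithelial laminin 332, was at 468 ± 18.4 CPM in PLD and 28.5 ± 3.65 CPM in WT at 2 months, and at 248 ± 61.8 CPM in PLD and 49.5 ± 19.7 CPM in WT at 1 month (mean ± SD, n = 3 each). Lamb3 had an interaction change of 1.72 ± 0.36 (SE; edgeR adjusted p = 0.0275). Lama4, a laminin chain of vessels and muscle, changed by -1.62 ± 0.32, and Hspg2, perlecan, by -1.33 ± 0.29. The endothelial covariate gave estimates of 0.42 for Lamb3, -1.43 for Lama4 and -0.69 for Hspg2. Lamb3 and Hspg2 were each called in 5 of the 12 fits without a library, and Lama4 in 8. Of 21 interstitial matrix genes, 0 were called with edgeR (2 with an unadjusted p under 0.05, 1 called by DESeq2 and 0 by limma-voom), with a median of -0.75. Of 20 stellate and fibroblast markers, likewise, 0 were called with edgeR (4 with an unadjusted p under 0.05, 2 by DESeq2, 0 by limma-voom), with a median of -0.67. Reln, reelin, had the smallest p of that list, with an interaction change of -2.60 ± 0.69 (SE; edgeR adjusted p = 0.0539).

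Clock genes were called upwards and none downwards. Of 18 clock genes, 6 were called upwards and 0 downwards, with a median of 1.05. Their median change with time was 0.12 in PLD and -1.08 in WT, and none was called in either genotype alone. Tef, Dbp and Hlf are related transcription factors that the core clock drives with the time of day. Tef was at 256, 158 and 184 CPM in PLD at 2 months, against 30.7, 32 and 69.7 CPM in WT at 2 months. At 1 month, Tef was at 125, 98.2 and 109 CPM in PLD and 100, 91.3 and 302 CPM in WT. The WT libraries at 2 months were the lowest, and WT replicate 3 at 1 month the highest. Tef had an interaction change of 2.75 ± 0.65 (SE; edgeR adjusted p = 0.0381), and Hlf had an interaction change of 2.97 ± 0.62 (SE; edgeR adjusted p = 0.0264). Dbp was at 84.3, 28.7 and 84.5 CPM in PLD at 2 months, against 2.36, 2.84 and 10.8 CPM in WT at 2 months. At 1 month, Dbp was at 50.8, 31.9 and 42.7 CPM in PLD and 34.6, 23.8 and 103 CPM in WT. The same pattern held for Dbp, which had an interaction change of 4.00 ± 0.96 (SE; edgeR adjusted p = 0.0403). Estimates with the endothelial covariate were 0.20 for Dbp, 0.35 for Tef and 1.28 for Hlf, and the median of the list was 0.56. Dbp and Tef were each called in 4 of the 12 fits without a library and Hlf in 6. Without WT replicate 3 at 1 month 7 of the 18 were called upwards, and without WT replicate 2 at 2 months 0 were. The hour at which livers were taken is not given in the labels, and its part in these values was not tested.

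Sterol synthesis genes were called downwards and none upwards. Of 24 genes, 6 were called downwards, with a median change of -1.12, and their median change with time was -0.90 in PLD, where 9 fell and 1 rose, and 0.22 in WT. The summed level was 715 to 1270 CPM in PLD and 917 to 1330 CPM in WT at 2 months, against 1770 to 1940 CPM in PLD and 896 to 1170 CPM in WT at 1 month. Insig1 encodes a sterol sensor of the endoplasmic reticulum that holds back the SREBP factors (chr5:28071363-28078662, plus strand). Insig1 was at 55.6, 20.6 and 49.1 CPM in PLD at 2 months, against 74, 49.4 and 73.8 CPM in WT at 2 months. At 1 month, Insig1 was at 139, 154 and 140 CPM in PLD and 60.2, 60.5 and 48.6 CPM in WT. PLD at 1 month was above all other libraries. Insig1 had an interaction change of -2.01 ± 0.42 (SE; edgeR adjusted p = 0.0274), with a change with time of -1.79 ± 0.31 in PLD and 0.22 ± 0.30 in WT. Stard4, a cholesterol carrier, was at 45.5, 22.9 and 40.7 CPM in PLD and 77, 76.1 and 89.8 CPM in WT at 2 months. At 1 month, Stard4 was at 107, 101 and 112 CPM in PLD and 56.4, 56.2 and 77.5 CPM in WT. Stard4 had an interaction change of -1.91 ± 0.32 (SE; edgeR adjusted p = 0.016) and was called in all 12 fits without a library. Sc5d, a desaturase of cholesterol synthesis, changed by -1.17 ± 0.23. Insig1 and Sc5d were each called in 4 of these fits. With the endothelial covariate the estimates were -2.86 for Insig1, -2.96 for Stard4 and -2.09 for Sc5d, and the median of the list was -2.13. Without WT replicate 2 at 2 months 1 of the 24 was called, at a median of -1.23.

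The called genes of fatty acid oxidation, oxidative phosphorylation and ribosomal proteins all changed upwards, by less than 1 log2 unit. Over all tested genes, 2.55% were called upwards. Of 24 fatty acid oxidation genes, 2 were called upwards and 0 downwards, 23 had a positive change, and the median was 0.57. Eci2, an isomerase of unsaturated fatty acids, changed by 0.90 ± 0.22 and Hadh, a dehydrogenase of the same pathway, by 0.77 ± 0.20. Of 34 nuclear oxidative phosphorylation genes, 4 were called upwards and 0 downwards (median 0.23), among them Sdhd of complex II with 0.64 ± 0.14, Uqcrfs1 of complex III with 0.65 ± 0.14 and Atp5d of ATP synthase with 0.62 ± 0.15. Of 36 ribosomal protein genes, 1, Rps9, was called, with 0.94 ± 0.23, a share near the 2.55% called upwards over all tested genes, and 35 had a positive change (median 0.47). Without WT replicate 3 at 1 month, 6 of the 24 oxidation genes, 6 of the 34 oxidative phosphorylation genes and 14 of the 36 ribosomal genes were called upwards. Without WT replicate 2 at 2 months, 0 members of these lists were called. Over the 12 fits without a library, Uqcrfs1 was called in 4, Eci2 in 3, and Hadh, Sdhd, Atp5d and Rps9 in 2 each.

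Of 22 glutathione transferases, 3 were called upwards and 0 downwards (median 0.48). Gsta4, which conjugates lipid peroxidation products, was at 437, 326 and 397 CPM in PLD and 13.8, 13.9 and 7.9 CPM in WT at 2 months, and at 115, 120 and 45 CPM in PLD and 37.7, 13.9 and 31.6 CPM in WT at 1 month. Gsta4 had an interaction change of 3.27 ± 0.60 (SE; edgeR adjusted p = 0.0181), Gsto1 changed by 2.49 ± 0.55 and Mgst3 by 1.30 ± 0.22. Gsta4 and Mgst3 were each called in 11 of the 12 fits without a library, and Gsto1 in 2. Nqo1, a quinone reductase and a target of the stress factor NRF2 as Gsta4 is, went the other way with an interaction change of -2.35 ± 0.50 (SE; edgeR adjusted p = 0.0275). It was called in 6 of these fits. Of 23 NRF2 targets, 1 was called upwards and 2 downwards, against 2.55% upwards and 3.13% downwards over all tested genes. Most of them, 18 of 23, had a positive change (median 0.36), and nothing is read about the list from so few calls. Of 19 complement genes, 0 were called upwards and 2 downwards, both of them surface proteins that protect cells from complement. The list as a whole did not fall, since 11 of the 19 had a positive change and the median was 0.42. Cd59a changed by -2.44 ± 0.33 and was called in all 12 fits without a library, and Cd55 changed by -3.20 ± 0.55. The endothelial covariate gave estimates of 1.86 for Gsta4, -0.68 for Nqo1, -0.96 for Cd59a and -0.58 for Cd55.

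Macrophage and interferon lists had positive medians without a call. Of 18 macrophage and Kupffer cell markers, 0 were called with edgeR (8 with an unadjusted p under 0.05, 1 by DESeq2 and 0 by limma-voom), and the median was 1.25. Their median PLD to WT difference was -0.64 log2 units at 2 months and -1.58 at 1 month. At 2 months 1 marker was called higher and 4 lower in PLD. Csf1r, the receptor for macrophage colony-stimulating factor, was at 730, 538 and 599 CPM in PLD and 270, 128 and 246 CPM in WT at 2 months, and at 309, 347 and 247 CPM in PLD and 352, 217 and 295 CPM in WT at 1 month. Csf1r had an interaction change of 1.47 ± 0.39 (SE; edgeR adjusted p = 0.0528). Cd163, a haemoglobin scavenger receptor of macrophages, had an interaction change of 1.24 ± 0.88 (SE; edgeR adjusted p = 0.424). Of 32 interferon response genes, 0 were called with edgeR (13 with an unadjusted p under 0.05, 7 by DESeq2 and 0 by limma-voom), although 31 had a positive change and the median was 1.53. PLD replicate 2 at 2 months had the highest interferon level of all libraries. The list summed to 2080, 8870 and 2880 CPM in PLD and 1980, 2400 and 1440 CPM in WT at 2 months, and to 1650 to 2270 CPM in PLD and 2190 to 2550 CPM in WT at 1 month. Oasl1, an antiviral protein, had the smallest p, with an interaction change of 2.31 ± 0.65 (SE; edgeR adjusted p = 0.064).

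Of 30 mitosis genes, 0 were called with edgeR (3 with an unadjusted p under 0.05, 0 by DESeq2 and 0 by limma-voom), with a median of -0.07. Their summed level was 152 to 306 CPM in PLD and 65.3 to 128 CPM in WT at 2 months, and 272 to 406 CPM in PLD and 121 to 205 CPM in WT at 1 month. The median change with time was -0.87 in PLD and -0.82 in WT. Bub1b, a spindle checkpoint kinase, had the smallest p of the list (edgeR adjusted p = 0.139), at 6.05, 3.85 and 7.8 CPM in PLD and 4.77, 8.44 and 7.22 CPM in WT at 2 months, and at 11.3, 11.7 and 10.2 CPM in PLD and 6.22, 5.81 and 7 CPM in WT at 1 month. Of 27 immediate early genes, 0 were called with edgeR (4 with an unadjusted p under 0.05, 1 by DESeq2, 0 by limma-voom), and Ier3, a stress-induced gene with the smallest p of the list, had an interaction change of 0.62 ± 0.19 (SE; edgeR adjusted p = 0.0891). Egr1, a transcription factor induced within minutes of growth signals, had an interaction change of 0.90 ± 0.39 (SE; edgeR adjusted p = 0.189). Of 31 DNA replication genes, 0 were called with edgeR (5 with an unadjusted p under 0.05, 3 by DESeq2, 0 by limma-voom), with a median of 0.13. Of 11 smooth muscle markers, 0 were called with edgeR, 0 had an unadjusted p under 0.05, and DESeq2 and limma-voom called 0, at a median of -0.88.

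In several other lists 1 to 3 members were called, and where 1 of 17 to 24 genes was called the share was near the 5.68% of all tested genes, so nothing is read about the list. Ttr, transthyretin, was the 1 of 24 hepatocyte markers called, with 1.29 ± 0.32. Among 9 mesothelial markers, Upk1b and Msln were called upwards and Gpm6a downwards, at 2.52 ± 0.63 for Upk1b and -2.60 ± 0.45 for Gpm6a. Upk1b and Msln were the only members with a positive change, while 7 of the 9 had a negative one (median -1.30). Clec9a, whose annotated span overlaps that of Clec1b, and Zbtb46 were called downwards among 13 dendritic and MHC class II genes, although 9 of the 13 had a positive change. Notch1, a Notch receptor, was the 1 of 17 Notch genes called, with -1.57 ± 0.39, and Blk, a kinase of B cells, the 1 of 9 B cell genes, with -4.45 ± 0.96. Adcy9 and Adcy4 both encode adenylyl cyclases, and among 26 cAMP genes Adcy9 was called upwards with 0.63 ± 0.14 and Adcy4 downwards with -2.54 ± 0.52. Among 19 retinoic acid genes, Cyp26a1, which breaks down retinoic acid, was called upwards with 2.60 ± 0.64, and the receptor Rarb downwards with -1.58 ± 0.34. Pfkfb3, a regulator of glycolysis, was the 1 of 21 hypoxia targets called, with 1.51 ± 0.32, and Myof, myoferlin, the 1 of 19 YAP targets, with 1.00 ± 0.20. With the endothelial covariate, estimates were -0.03 for Adcy4, -0.04 for Notch1, -0.07 for Zbtb46, -0.72 for Clec9a, -0.94 for Rarb, 0.28 for Ttr and 0.46 for Myof. They were 0.82 for Adcy9, 1.40 for Upk1b, 1.87 for Pfkfb3, 2.62 for Cyp26a1, -2.65 for Blk and -3.01 for Gpm6a. In all, 20 of the 53 gene lists had no called member, with medians from -1.13 to 1.53, 16 had upward calls alone, 8 downward calls alone and 9 both. Without WT replicate 2 at 2 months, 0 members were called of the cholangiocyte, keratin, junction, ion transport, Hedgehog, basement membrane, glutathione transferase, oxidation and ribosomal lists, 2 of the gut-type list, 3 of the cyst list and 4 of the Wnt ligand list.

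A few genes differed between the genotypes at both months but in opposite directions. There were 8 such genes, 7 upward and 1 downward, and those named here were chosen after their values were seen. Sord encodes sorbitol dehydrogenase. Sord was at 82.6, 103 and 80.8 CPM in PLD at 2 months, against 45.9, 59.2 and 31.2 CPM in WT at 2 months. At 1 month, Sord was at 29.3, 21.3 and 25.8 CPM in PLD and 71.3, 53.6 and 56.3 CPM in WT. PLD was the higher genotype at 2 months and the lower at 1 month, with no overlap at either. Sord had an interaction change of 2.21 ± 0.31 (SE; edgeR adjusted p = 0.0104) and was called in all 12 fits without a library. Mdk, the growth factor midkine, changed by 1.73 ± 0.32, Phyh, a peroxisomal enzyme of fatty acid breakdown, by 0.99 ± 0.17, and Ppargc1b, a coactivator of mitochondrial genes, by 2.22 ± 0.43. The downward gene was Cmtm8, with -1.22 ± 0.25. Cit, citron kinase, shared the lowest adjusted p with other genes and changed the sign of its difference, with an interaction change of -2.97 ± 0.31 (SE; edgeR adjusted p = 0.00768). Cit was at 5.4, 4.87 and 5.67 CPM in PLD and 39, 42.5 and 28.8 CPM in WT at 2 months, and at 18, 12 and 19.9 CPM in PLD and 14.9, 16.9 and 12.2 CPM in WT at 1 month, where the groups overlapped.

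The difference narrowed in 2 called genes, among them Arl11, a small GTPase. Arl11 differed by -0.07 log2 units at 2 months and -2.57 at 1 month, and had an interaction change of 2.51 ± 0.56 (SE; edgeR adjusted p = 0.0317).

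The 5 interaction genes whose change with time was also called in WT were likewise chosen after their values were seen. Itgb6, the beta subunit of an epithelial integrin that activates TGF-beta, was at 19.5, 18.7 and 25.9 CPM in PLD and 10.3, 6.77 and 8.53 CPM in WT at 2 months. At 1 month, Itgb6 was at 24.9, 20.4 and 18.3 CPM in PLD and 24.3, 19.9 and 23.8 CPM in WT, so WT at 2 months lay below all other libraries, and it had an interaction change of 1.42 ± 0.27 (SE; edgeR adjusted p = 0.0209). Btg1, an antiproliferative protein, was at 405, 393 and 375 CPM in PLD and 184, 174 and 198 CPM in WT at 2 months, and at 381, 400 and 360 CPM in PLD and 379, 321 and 310 CPM in WT at 1 month. Btg1 changed by 0.90 ± 0.16, Colca2 by 2.07 ± 0.26 and Serpini1, a serine protease inhibitor, by 1.05 ± 0.23. Igsf23 was called with time in both genotypes, downwards in PLD and upwards in WT. Igsf23 was at 1.5, 1.52 and 2.13 CPM in PLD at 2 months, against 12.7, 14.1 and 15.1 CPM in WT at 2 months. At 1 month, Igsf23 was at 4.75, 3.27 and 4 CPM in PLD and 3.54, 5.55 and 3.25 CPM in WT. It had an interaction change of -2.97 ± 0.36 (SE; edgeR adjusted p = 0.00768) and was called in all 12 fits without a library.

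**Figure D5:**
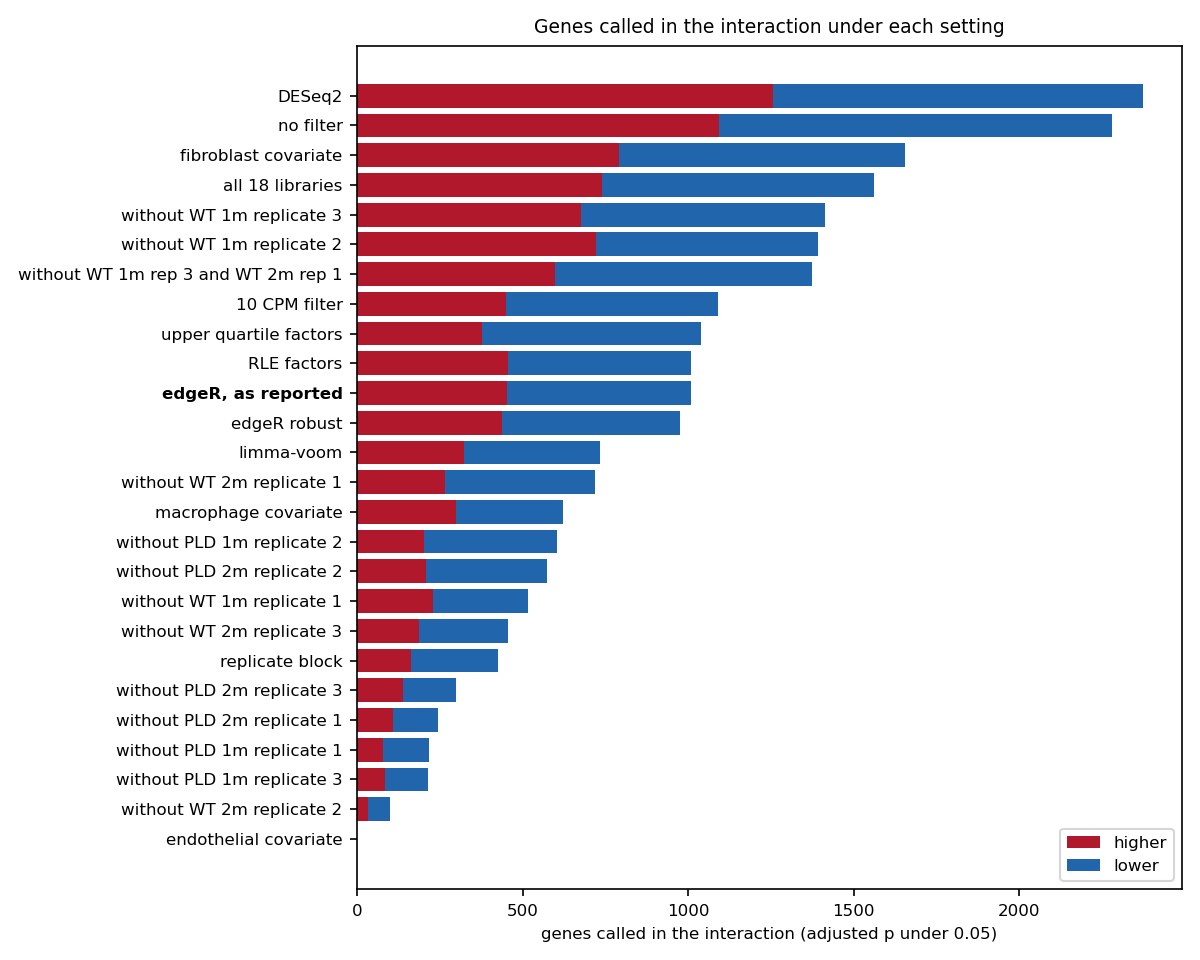
Number of genes called in the interaction under each setting (horizontal), split into upward (red) and downward (blue) calls, with the reported edgeR test of 12 libraries in bold. Counts ran from 0 with the endothelial covariate and 100 without WT replicate 2 at 2 months to 2374 with DESeq2.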

How the data were processed

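The deposited values are read pair counts per gene, 1 file per library. Per the submitters' processing notes, STAR 2.7.4a, SAMtools 1.12, featureCounts 1.6.0 and DESeq2 1.26.0 were used with mm10, and per the file headers the authors counted pairs over GENCODE M25 with no strand option, so a gene and an overlapping antisense gene cannot be told apart. Total counts ran from 17048976 to 29277311 over the 12 libraries, and no pair of files was identical.

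Starting from these counts, edgeR 4.0.16 (R 4.3.3) was run with its expression filter, TMM factors and 1 mean per group over 12 libraries (8 residual degrees of freedom). The quasi-likelihood F-test of the interaction was adjusted by Benjamini-Hochberg over 17749 genes, and genes with an adjusted p under 0.05 were called. Standard errors were derived from the log2 change and its F statistic (absolute change over root F). Levels in CPM are TMM-scaled, and log2 CPM uses a prior count of 2. DESeq2 1.42.0, limma-voom (limma 3.58.1), other scalings and filters, covariates and leaving out libraries were tried. The code was tested on simulated data.

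Named genes are the 10 largest called changes each way with a mean of at least 10 CPM in 1 group, up to 3 called members of each list by adjusted p (or the member with the smallest p), a fixed set, and the smallest p of each class of change. Genes outside this rule are said to be so, and a few genes under it are not reported here. The members and lists were chosen with earlier results of these data known. All 55401 genes were read, 55141 of them with a symbol, and 0 columns lacked a sample.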

Additional observations from a re-analysis of the deposited data

Results flagged for a closer look

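The interaction is itself a test of whether PLD and WT differ by unequal amounts at 2 months and at 1 month. Of the 1008 genes called in the fit of 12 libraries, 97 were also called in all 12 fits without a library. With the endothelial covariate, 0 genes were called. The named genes among the 1008 follow with their interaction change in log2 units (edgeR, adjusted p under 0.05). Their levels and errors are given above, and no explanation was weighed.

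Downward changes were -9.60 for Sprr2b, -6.73 for Adh6b, -6.24 for Dnase1l3, -5.93 for Clec4g, -5.86 for Stab2, -5.41 for Plppr5, -5.38 for Clec1b, -5.36 for Oit3 and -5.15 for Slc26a10. Smaller downward changes were -5.02 for F8, -4.89 for Wnt9b, -4.74 for Rspo3, -4.71 for Wnt2, -4.45 for Gpr182, -4.07 for Kdr, -3.79 for Tek and -3.53 for Ptprb. Further downward changes were -3.20 for Cd55, -2.97 for Cit, -2.97 for Igsf23, -2.91 for Vwf, -2.75 for Tie1, -2.65 for Nrg1, -2.44 for Cd59a, -2.35 for Nqo1 and -2.31 for Dhh. Less negative changes were -2.01 for Insig1, -1.91 for Stard4, -1.62 for Lama4, -1.33 for Hspg2, -1.22 for Cmtm8 and -1.17 for Sc5d.

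Upward changes were 7.94 for Shh, 5.26 for Tff3, 4.73 for Areg, 4.61 for Mmp7, 4.42 for Cyp2c65, 4.32 for Sult1d1, 4.24 for Atp2c2 and 4.12 for Myo1a. Smaller upward changes were 4.00 for Dbp, 3.98 for Rasgrf1, 3.72 for Lgals4, 3.72 for Foxq1, 3.59 for Krt20, 3.27 for Gsta4, 2.97 for Hlf, 2.83 for Wnt10a and 2.75 for Tef. Further upward changes were 2.57 for Car2, 2.55 for Wfdc2, 2.51 for Elf3, 2.51 for Arl11, 2.49 for Gsto1, 2.22 for Msln, 2.22 for Ppargc1b, 2.21 for Sord and 2.08 for Wnt7b. Lower upward changes were 2.07 for Colca2, 1.97 for Klf5, 1.91 for Wnt4, 1.89 for Krt19, 1.87 for Pkp3, 1.82 for Kcnq1, 1.79 for Hbegf, 1.73 for Mdk and 1.72 for Lamb3. Still lower upward changes were 1.53 for Perp, 1.42 for Itgb6, 1.30 for Mgst3, 1.05 for Serpini1, 0.99 for Phyh, 0.94 for Rps9, 0.90 for Eci2 and 0.90 for Btg1. Below these came 0.77 for Hadh, 0.65 for Uqcrfs1, 0.64 for Sdhd, 0.62 for Atp5d and 0.53 for Slc4a2.

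Among members called in the remaining lists, downward changes were -4.45 for Blk, -3.16 for Clec9a, -2.81 for Gata4, -2.60 for Gpm6a, -2.54 for Adcy4, -1.77 for Zbtb46, -1.58 for Rarb and -1.57 for Notch1, and upward changes were 2.60 for Cyp26a1, 2.52 for Upk1b, 1.51 for Pfkfb3, 1.29 for Ttr, 1.00 for Myof and 0.63 for Adcy9.

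No test for a library far from the others was made, since every group has 3 libraries.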

How the results depend on the processing

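The count of called genes was 1008, and it was 2374 with DESeq2, 2282 with no expression filter, 1656 with a fibroblast covariate, 1561 with all 18 libraries, 623 with a macrophage covariate and 0 with an endothelial covariate. Leaving out 1 library at a time gave 100 to 1413. Replicate numbers did not pair the samples (correlations of deviations -0.245 to 0.201), and the fit with the replicate block called 426 genes. Other scalings, robust fitting, a 10 CPM filter and limma-voom stayed within 1.5 times. The called genes given a value kept their sign in every alternative but the endothelial covariate, where 928 of 1008 did.

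Of 111 genes compared, 94 of them called, the endothelial covariate turned the sign of 10: Psca to -0.50, Epcam to -0.63, Car2 to -0.20, Esr1 to 1.19, Pkd1 to 0.84, Pkd2 to -0.10, Pkhd1 to -2.95, Sec63 to 0.35, Reln to 0.27 and Gata4 to 0.35. Pkhd1 was also at -0.57 with the fibroblast covariate and -0.61 with a pair of WT libraries left out together (replicate 1 of the later time, replicate 3 of the earlier), and ran from -0.59 to 1.06 over the fits without 1 library. The cause was not tested. Calls lost were all 94 with the endothelial covariate, 74 without WT replicate 2 at 2 months, 40 with the replicate block, 30 with the macrophage covariate and 18 with limma-voom.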
